A study of Homo sapiens with 6 samples.

Results

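Transcripts of 10 amino acid transporter genes were followed in K562 cells treated with an inhibitor of EZH2, the catalytic subunit of Polycomb repressive complex 2. The members were named as a list of symbols, SLC7A11, SLC7A5, SLC3A2, SLC7A1, SLC38A1, SLC38A2, SLC1A4, SLC1A5, SLC6A9 and SLC43A1. Each was found in the count files by the Ensembl identifier that GENCODE pairs with its symbol, 10 of 60671 genes in all. K562 is a human chronic myeloid leukemia line, and the cells here were a single clone that carries a doxycycline-inducible fusion of a Flag tag, a nuclear localization signal, the GpC methyltransferase M.CviPI and Lamin B1. GSK343 (EZH2i) was given at 1 µM to 3 separate cultures, and 3 received 0.1% DMSO as vehicle, each for 72 h. Both groups received 1 µg/mL doxycycline for the final 24 h, so the controls also expressed the fusion, and cells without it were not among these libraries. RNA was measured by QuantSeq 3′ mRNA sequencing, which yields about 1 read per transcript near its polyadenylated end, so that CPM values (reads on a gene scaled by library size and TMM factor) were compared between genes without dividing by length.

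Amino acids cross the plasma membrane through carriers of the solute carrier (SLC) families, which differ in substrate and in how they are driven. Exchangers such as SLC1A5 and SLC7A5 trade one amino acid for another, symporters such as SLC38A2 use the sodium gradient to concentrate glutamine and alanine, and uniporters such as SLC43A1 let leucine and related amino acids pass down their gradient. When amino acids run short, the kinase GCN2 phosphorylates the translation factor eIF2, the transcription factor ATF4 accumulates, and with C/EBP partners it binds response elements at many of these transporter genes. In erythroid cells, the lineage that K562 resembles, glycine taken up through SLC6A9 feeds heme synthesis.

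The core of that response element, TGATGNAA, was searched on both strands of RefSeq promoter windows of GRCh38.p14, each of 300 bases with 250 before and 50 after an annotated start. Windows were found for 9 of the 10 members, all but SLC7A11. The core was present in 5 of the members' 16 windows (31.2%) and in 1270 of all 35116 windows (3.62%). Counted by gene, it was present at 5 of 9 members (55.6%) and at 1217 of 27305 genes (4.46%), or at 365 of the 5191 genes with at least 2 windows (7.03%). The 5 matches are printed in stretches of 30 bases, 5′ to 3′ on the gene's strand, because members of several families hold the core. It was the only motif searched, and the windows of SLC7A5, SLC38A2, SLC6A9 and SLC43A1 did not hold it. Capitals mark the 8 bases that match the core on either strand.
SLC3A2, chr11:62881719-62881748, plus strand: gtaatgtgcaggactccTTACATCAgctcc
SLC7A1, chr13:29595663-29595692, minus strand: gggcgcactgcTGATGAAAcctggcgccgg
SLC38A1, chr12:46266502-46266531, minus strand: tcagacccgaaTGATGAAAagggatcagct
SLC1A4, chr2:64989381-64989410, plus strand: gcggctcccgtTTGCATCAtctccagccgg
SLC1A5, chr19:46784893-46784922, minus strand: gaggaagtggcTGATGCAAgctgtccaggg
In SLC3A2 and SLC1A4 the match is on the strand opposite to the gene, and in SLC7A1, SLC38A1 and SLC1A5 on the gene's own strand. The match starts 7 bases after the outermost start of SLC7A1, in its first exon. The other matches belong to starts inside the gene. That of SLC3A2 lies 37 bases after a start 25695 bases into the gene and is exonic. The matches of SLC38A1 and SLC1A4 begin 4 and 7 bases before starts that lie 3501 and 922 bases into the gene, and each includes its start base. That of SLC1A5 begins 97 bases before a start 3780 bases into the gene. All 3 lie inside the gene but not wholly within an exon of GENCODE. A match describes letters only, and binding was not measured.

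SLC1A5 is the member whose libraries gave the smallest p-value below. The 250 bases before its outermost start, chr19:46788595-46788844 on the minus strand, are 66.8% G or C with 19 CpG dinucleotides and hold no exon of the gene. They are shown as the region before that annotated start, with no base in capitals because the core was not found there. Which of its annotated starts is used in these cells was not measured.
SLC1A5 upstream: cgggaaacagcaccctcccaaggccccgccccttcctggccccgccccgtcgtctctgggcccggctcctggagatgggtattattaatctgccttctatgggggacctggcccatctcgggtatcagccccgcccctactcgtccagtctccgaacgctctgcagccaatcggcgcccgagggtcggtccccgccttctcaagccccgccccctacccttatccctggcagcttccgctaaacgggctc

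The deposited values are raw counts per gene, with 6327544 to 8987768 reads on genes per library, and edgeR's TMM factors ranged from 0.9695 to 1.018. Reads in no annotated feature, one of the categories of unassigned reads, made up from 7.43% to 8.51% of the listed reads in 5 libraries and 12.7% in EZH2i replicate 3. Of the 9 erythroid and K562 markers examined, all passed the filter on low counts, and their summed level was 888 to 1011 CPM in DMSO and 1009 to 1078 CPM in EZH2i. HBZ and HBG2, embryonic and fetal globins, rose with EZH2i, by 1.15 and 0.58 on the log2 scale (edgeR adjusted p = 6.14e-05 and 0.0251). The call for HBG2 was lost when any of the 3 DMSO replicates was left out (highest adjusted p = 0.138, without DMSO replicate 2). Among 7 T and B cell markers 2 were tested and CD3D rose, from 63.8 ± 5.82 to 88 ± 9.57 CPM (SD, n = 3; edgeR adjusted p = 0.0309), a call lost when any DMSO replicate or EZH2i replicate 1 was left out (highest adjusted p = 0.148). The list's sum was 62.9 to 75.2 CPM in DMSO and 86.6 to 105 CPM in EZH2i, with MS4A1 at 0. Among 7 fibroblast and endothelial markers only COL1A1 was tested, and it rose from 1.57 ± 0.507 to 6.04 ± 1.91 CPM (adjusted p = 0.00424), with sums of 1.41 to 2.95 and 5.69 to 9.02 CPM and LUM and VWF at 0. The part of these differences in the transporter values was not tested.

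All 10 transporters were expressed well above the filter on low counts, at levels from the 61.8th to the 95.3rd percentile of the 12364 genes tested. SLC1A5, an exchanger of glutamine, alanine, serine and cysteine, was the most abundant with a mean of 271 CPM over the 6 libraries, followed by the glutamine symporter SLC38A2 at 230 CPM and by SLC3A2, the heavy chain of the heteromeric transporters, at 168 CPM. The ranges of these 3 over the libraries overlapped from neighbour to neighbour, at 199 to 344, 179 to 271 and 146 to 185 CPM. SLC7A5, SLC7A1 and SLC1A4 formed the middle of the order with means of 115, 92.2 and 85.6 CPM and ranges that also overlapped between neighbours. SLC43A1, SLC7A11, SLC38A1 and SLC6A9 had the lowest means, 59.3, 52.3, 40.8 and 38 CPM, again with overlapping neighbours. Neighbours whose ranges over the 6 libraries did not overlap were SLC3A2 and SLC7A5, and SLC1A4 and SLC43A1. Read within each library, SLC38A2 was also above SLC3A2, SLC7A5 above SLC7A1 and SLC7A11 above SLC38A1 in 6 of 6 libraries, and the other 4 neighbouring pairs kept their order in 5 of 6. The upper bound of SLC7A5 was 132 CPM against a lower bound of 146 for SLC3A2, and that of SLC43A1 was 75.8 against 76.1 for SLC1A4.

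**Figure D1:**
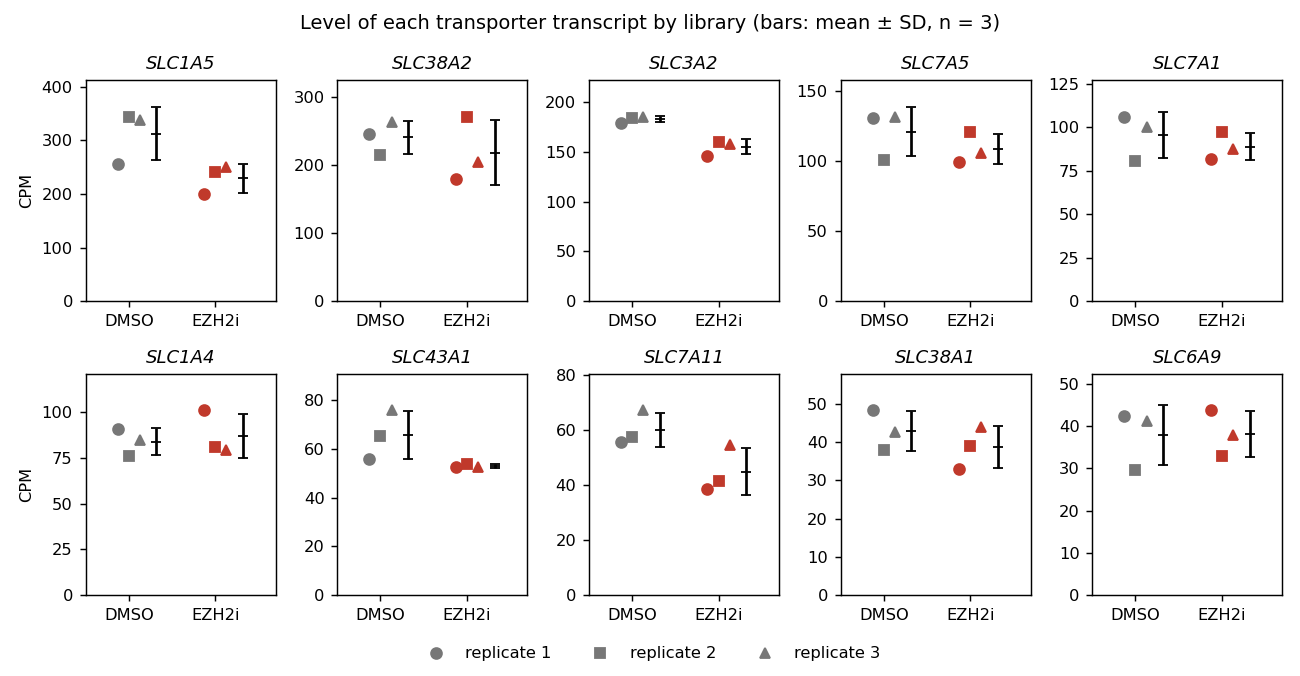
Levels of the 10 transporter transcripts in CPM (linear axes that start at 0), ordered by mean level, in DMSO (gray) and EZH2i (red) libraries; marker shapes give the replicate number, and black bars are the mean ± SD of 3 libraries. For SLC1A5, SLC3A2, SLC43A1 and SLC7A11 all 3 EZH2i libraries lie below all 3 DMSO libraries, and the groups of the other 6 overlap.

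To ask whether EZH2 inhibition altered these transcripts, EZH2i libraries were compared with DMSO libraries by edgeR's quasi-likelihood test over all tested genes, and a gene is called here when its Benjamini-Hochberg adjusted p is under 0.05. None of the 10 members was called in either direction, where 4.26% of all tested genes were called, 0.922% as lower and 3.34% as higher. At an unadjusted p under 0.05 edgeR had 4 members lower, SLC1A5, SLC7A11, SLC43A1 and SLC3A2, and 0 higher, beside 8.21% of all tested genes that were lower at that level. The fitted log2 fold change was below 0 for 8 members and above 0 for 2, beside 50.0% of all tested genes below 0. The members' median was -0.15 and that of all tested genes -0.00021. The members were chosen with earlier results of these data known, so these counts are descriptions. Every EZH2i library was below every DMSO library for 4 members, the same 4, and for 11.1% of all tested genes; no member had the opposite pattern. DESeq2 called 1 member lower, SLC1A5, and 1.12% of its genes lower, while limma-voom called 0. In bulk RNA, fewer cells that express a transporter and less RNA per cell cannot be told apart.

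**Figure D2:**
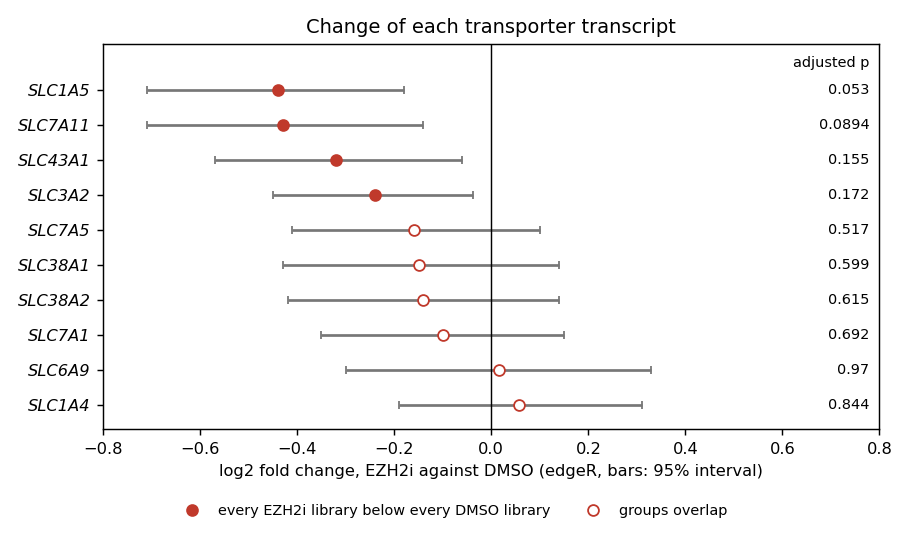
Log2 fold change of each transporter, EZH2i against DMSO, with its 95% interval and its adjusted p from edgeR at the right; filled circles mark members whose EZH2i libraries all lie below the DMSO libraries. The 4 filled members range from -0.44 to -0.24 with intervals below 0, and each adjusted p is above 0.05.

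The heteromeric transporters pair a glycoprotein heavy chain, SLC3A2 (4F2hc, CD98), with a light chain that carries the substrate. SLC3A2 (ENSG00000168003, chromosome 11, 62856004 to 62888880, plus strand of GRCh38) was at 179, 184 and 185 CPM in DMSO replicates 1, 2 and 3 and at 146, 160 and 158 CPM in EZH2i replicates 1, 2 and 3. The DMSO libraries lay within a few CPM of each other, and all 3 EZH2i libraries were below them, EZH2i 1 the lowest. The means were 183 ± 3.3 and 154 ± 7.62 CPM (SD, n = 3), a log2 fold change of -0.24 with an SE of 0.0975 and a 95% interval from -0.45 to -0.038 (edgeR adjusted p = 0.172). These intervals treat each gene alone and are not adjusted for the number of genes.

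SLC7A5 (LAT1) is the light chain that exchanges leucine and other large neutral amino acids for intracellular glutamine. SLC7A5 (ENSG00000103257, chromosome 16, 87830023 to 87869507, minus strand) was at 131, 101 and 132 CPM in DMSO and at 99.7, 121 and 106 CPM in EZH2i. DMSO 2 lay among the EZH2i libraries, so the groups overlapped. The means of 122 ± 17.8 and 109 ± 10.7 CPM gave a log2 fold change of -0.16 with a 95% interval from -0.41 to 0.10 (edgeR adjusted p = 0.517).

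SLC7A11 (xCT) is the light chain of system xc-, which imports cystine for glutathione synthesis in exchange for glutamate. SLC7A11 (ENSG00000151012, chromosome 4, 138164097 to 138242349, minus strand) was at 55.4, 57.5 and 67 CPM in DMSO and at 38.5, 41.4 and 54.4 CPM in EZH2i. The groups did not overlap, but EZH2i 3 came within about 1 CPM of DMSO 1 and stood apart from the other EZH2i libraries. The means were 59.9 ± 6.17 and 44.8 ± 8.5 CPM, a difference of -25.3% from DMSO to EZH2i, and the log2 fold change was -0.43 with an SE of 0.136 and a 95% interval from -0.71 to -0.14 (edgeR adjusted p = 0.0894). Without EZH2i replicate 3, SLC7A11 was called at a log2 fold change of -0.59 (edgeR adjusted p = 0.0254). With any other library left out it was not called. The change was smallest without EZH2i replicate 1 (-0.33, edgeR adjusted p = 0.171), and the adjusted p reached 0.271 without DMSO replicate 3.

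Ratios of read counts between the subunits were taken within each library, where library scaling cancels. The ratio of SLC7A5 to SLC3A2 was 0.734, 0.549 and 0.715 in DMSO and 0.685, 0.755 and 0.675 in EZH2i, with means of 0.666 ± 0.102 and 0.705 ± 0.0437 (SD, n = 3). The groups overlapped, and the mean log2 ratio differed by 0.092 (two-sided exact permutation p = 0.8, with 0.1 the smallest that 3 against 3 allows). The ratio of SLC7A11 to SLC3A2 was 0.309, 0.312 and 0.362 in DMSO and 0.264, 0.259 and 0.345 in EZH2i. Here EZH2i 3 lay above DMSO 1 and DMSO 2, while the other EZH2i libraries lay below all DMSO libraries, and the log2 difference was -0.19 (exact permutation p = 0.3). The ratio of SLC7A11 to SLC7A5, the cystine to the leucine light chain, was 0.421, 0.569 and 0.506 in DMSO and 0.386, 0.343 and 0.511 in EZH2i. These groups overlapped as well, through EZH2i 3, and the log2 difference was -0.28 (exact permutation p = 0.3). With 1 library left out, the difference for SLC7A5 to SLC3A2 ranged from -0.041 (without DMSO replicate 2) to 0.17 (without DMSO replicate 1). That for SLC7A11 to SLC3A2 ranged from -0.32 to -0.11, and that for SLC7A11 to SLC7A5 from -0.44 to -0.16 (without EZH2i replicate 3 and 2 in both).

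**Figure D3:**
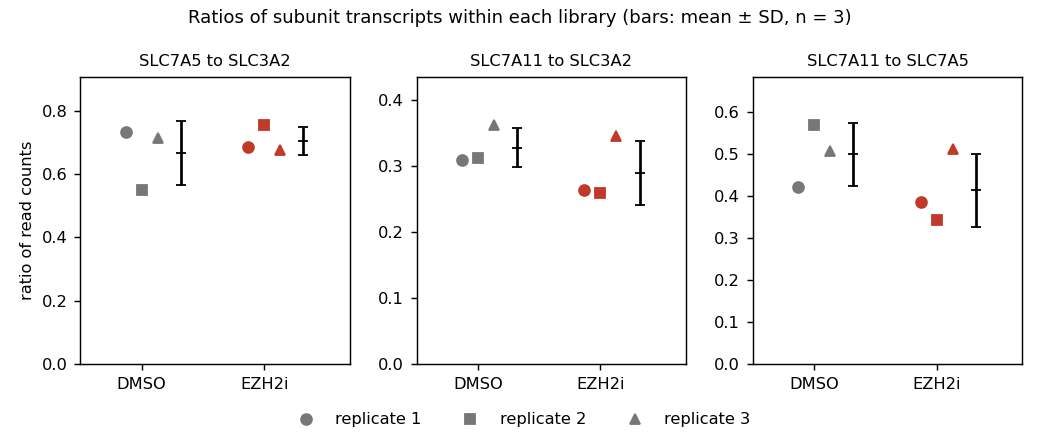
Ratios of read counts between subunit transcripts within each library (linear axes that start at 0), in DMSO (gray) and EZH2i (red), with marker shapes for the replicate number and black bars for the mean ± SD of 3 libraries. The groups overlap in all 3 panels, and in both panels with SLC7A11 the EZH2i replicate 3 library (red triangle) is the highest of its group.

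The SLC1 family holds a pair of exchangers of small neutral amino acids in the list. SLC1A5 (ASCT2, ENSG00000105281, chromosome 19, 46774883 to 46788594, minus strand), which exchanges glutamine, was at 255, 344 and 337 CPM in DMSO and at 199, 240 and 250 CPM in EZH2i. The groups did not overlap, but DMSO 1 was close to EZH2i 3 and far from the other DMSO libraries. The means were 312 ± 49.3 and 230 ± 26.7 CPM (SD, n = 3), a difference of -26.4% from DMSO to EZH2i. The log2 fold change was -0.44 with an SE of 0.124 and a 95% interval from -0.71 to -0.18, and the adjusted p of 0.053 from edgeR missed the threshold. This call depended on the setting. DESeq2 called SLC1A5 (log2 fold change -0.46, adjusted p = 0.0208), as did edgeR without a filter on low counts, with a replicate block and without DMSO replicate 1 (adjusted p = 0.00232, 0.0251 and 0.0327). Limma-voom did not (adjusted p = 0.0553), and the adjusted p reached 0.224 without DMSO replicate 2. ENSG00000275719 has exons on the opposite strand that overlap SLC1A5, and it was at 1.29 to 4.69 CPM.

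SLC1A4 (ASCT1, ENSG00000115902, chromosome 2, 64988477 to 65023865, plus strand) carries alanine, serine, cysteine and threonine. It was at 90.9, 76.1 and 84.9 CPM in DMSO and at 101, 81 and 79.3 CPM in EZH2i. EZH2i 1 was above every DMSO library and the other EZH2i libraries were within the DMSO range. The means were 83.9 ± 7.42 and 87.3 ± 12.3 CPM, and the log2 fold change of 0.057 (95% interval from -0.19 to 0.31, edgeR adjusted p = 0.844) changed sign without DMSO replicate 2 or EZH2i replicate 1. Both members of the family are exchangers of overlapping substrates, and their fitted changes had opposite signs; the difference between them was not tested.

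SLC38A1 (SNAT1) and SLC38A2 (SNAT2) are sodium-coupled importers of glutamine, alanine and other small neutral amino acids, and their genes are neighbours on the minus strand of chromosome 12. SLC38A1 (ENSG00000111371, 46183063 to 46270017) was at 48.3, 38 and 42.6 CPM in DMSO and at 33, 39 and 44 CPM in EZH2i. Only EZH2i 1 lay below the DMSO range, and the log2 fold change was -0.15 with a 95% interval from -0.43 to 0.14 (edgeR adjusted p = 0.599). SLC38A2 (ENSG00000134294, 46358188 to 46372773) was at 245, 215 and 263 CPM in DMSO and at 179, 271 and 205 CPM in EZH2i. The EZH2i libraries spread over a wider range than the DMSO libraries, with EZH2i 2 the highest of all 6 and the other EZH2i libraries below every DMSO library. Its means were 241 ± 24.3 and 219 ± 47.6 CPM, and the log2 fold change was -0.14 with a 95% interval from -0.42 to 0.14 (edgeR adjusted p = 0.615). It was -0.33 without EZH2i replicate 2 and -0.014 without EZH2i replicate 1, not called in either case.

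The remaining members carry other substrates. SLC7A1 (CAT1, ENSG00000139514, chromosome 13, 29509414 to 29595688, minus strand) imports arginine and lysine and needs no heavy chain. It was at 106, 80.7 and 100 CPM in DMSO and at 81.9, 97 and 87.5 CPM in EZH2i. The EZH2i libraries all lay inside the DMSO range, and the log2 fold change was -0.10 with a 95% interval from -0.35 to 0.15 (edgeR adjusted p = 0.692).

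SLC6A9 (GLYT1, ENSG00000196517, chromosome 1, 43991500 to 44031467, minus strand), the sodium- and chloride-coupled glycine transporter, was at 42.5, 29.7 and 41.3 CPM in DMSO and at 43.7, 32.9 and 38 CPM in EZH2i. DMSO 2 was the lowest library and EZH2i 1 the highest, and the group means of 37.8 ± 7.09 and 38.2 ± 5.42 CPM differed by less than either SD. The log2 fold change was 0.016 with a 95% interval from -0.30 to 0.33 (edgeR adjusted p = 0.97), and its sign turned in several settings. CCDC24, with exons on the opposite strand, was at 1.49 to 4.04 CPM.

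SLC43A1 (LAT3, ENSG00000149150, chromosome 11, 57484534 to 57515780, minus strand) lets leucine, isoleucine, phenylalanine and methionine cross without sodium or a heavy chain. It was at 56, 65.4 and 75.8 CPM in DMSO and at 52.6, 53.8 and 52.4 CPM in EZH2i. The EZH2i libraries were nearly equal and all below the spread-out DMSO libraries, of which DMSO 1 came closest. The means were 65.7 ± 9.91 and 52.9 ± 0.785 CPM, and the log2 fold change was -0.32 with an SE of 0.121 and a 95% interval from -0.57 to -0.061 (edgeR adjusted p = 0.155). Of the leucine carriers, SLC43A1 thus had groups apart and SLC7A5 had groups that overlapped; this difference was not tested.

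The summed level of the 10 members was 1209, 1192 and 1329 CPM in DMSO and 975, 1137 and 1075 CPM in EZH2i, 1243 ± 74.8 against 1062 ± 81.6 CPM (SD, n = 3). The sums of the groups did not overlap. SLC1A5, SLC38A2 and SLC3A2 hold most of this sum, so it mainly follows them. The libraries did not rank alike across members. DMSO 1 was the lowest of its group for 4 members, SLC7A11, SLC3A2, SLC1A5 and SLC43A1, which are the 4 with groups apart, and the highest of its group for SLC7A1, SLC38A1, SLC1A4 and SLC6A9. DMSO 2 was the lowest for the other 6. EZH2i 1 was the lowest of its group for 7 members and the highest for SLC1A4 and SLC6A9.

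**Figure D4:**
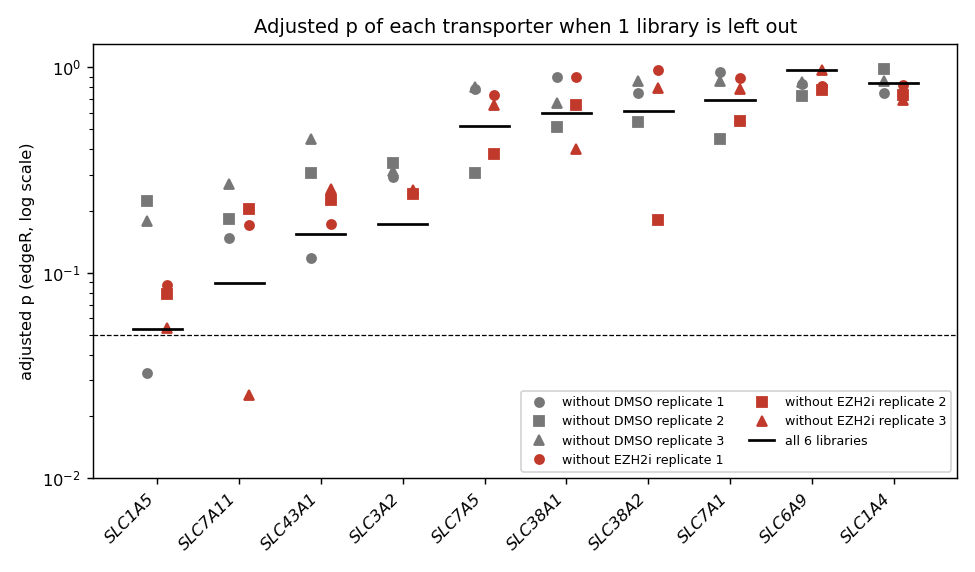
Adjusted p of each transporter from edgeR (log axis) with all 6 libraries (black line) and with each library left out in turn (gray for a DMSO library, red for an EZH2i library, shape for its replicate number); the dashed line is the threshold of 0.05. SLC1A5 passes it without DMSO replicate 1 and SLC7A11 without EZH2i replicate 3, and the other 8 members do not pass it in any of these fits.

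Leaving out each library in turn, edgeR called 0 or 1 members. The 1 member was SLC1A5 without DMSO replicate 1, where 0.258% of all tested genes were called lower, and SLC7A11 without EZH2i replicate 3, where 0.820% were. The count was 0 without DMSO replicate 2 or 3, beside 0.158% and 0.434% of genes called lower, and without EZH2i replicate 1 or 2, beside 0.973% and 0.626%. At an unadjusted p under 0.05 the count of lower members was 2 without DMSO replicate 3, beside 7.45% of genes, and 5 without EZH2i replicate 2, beside 8.19%. It was 4 of 10 without DMSO replicate 1 or 2, beside 6.09% and 5.44% of genes, and without EZH2i replicate 1 or 3, beside 7.93% and 8.28%. Without a filter on low counts SLC1A5 and SLC7A11 were called, beside 1.33% of 26226 genes called lower, and with the replicate block SLC1A5 was called, beside 1.21% of genes.

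The genes most like SLC1A5 across the 6 libraries were METTL5, a ribosomal RNA methyltransferase, EIF3D, a subunit of translation initiation factor eIF3, and HDAC7, a class IIa histone deacetylase. Pearson's r of log2 CPM was 0.9930, 0.9890 and 0.9859. METTL5 was at 203, 236 and 228 CPM in DMSO and at 185, 196 and 202 CPM in EZH2i, with the same low DMSO 1 library as SLC1A5. Over the 6 libraries, 189 genes had r over 0.9 with SLC1A5, so these values are descriptions. None of the 3 was called (edgeR adjusted p = 0.301, 0.264 and 0.066).

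Other genes of amino acid handling were read from lists that were chosen with earlier results of these data known. Of 29 other plasma membrane amino acid transporters, 5 passed the filter and 0 were called, and 9 had no read in any library, among them SLC6A14 and SLC38A4. The 5 were SLC6A6, SLC7A6, SLC7A8, SLC38A5 and SLC43A2, with log2 fold changes of 0.30, -0.067, 0.26, 0.29 and 0.19 and a median of 0.26, where the median of the 10 members was -0.15. SLC7A8 (LAT2), another light chain of SLC3A2, was at 79.4, 71.5 and 101 CPM in DMSO and at 66.4, 116 and 120 CPM in EZH2i. Its groups overlapped through EZH2i 1, and it was not called with all libraries (edgeR adjusted p = 0.452). Without EZH2i replicate 1 it was called higher (log2 fold change 0.49, edgeR adjusted p = 0.0241), and without EZH2i replicate 3 its adjusted p was 0.791. Of 7 lysosomal transporters 6 were tested and 0 called, with a median of -0.022. Of 11 mitochondrial carriers 9 were tested and 0 called, with a median of -0.23 and 7 below 0. Over all tested genes, 4.26% were called in either direction and 50.0% were below 0.

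Among 12 regulators of the amino acid response, all were tested, 2 were called lower and 0 higher, 11 were below 0 and the median was -0.20. Of all tested genes, 0.922% were called lower and 50.0% were below 0. The list was chosen with earlier results of these data known, so these counts are descriptions. TRIB3, a pseudokinase induced by ATF4, was at 151, 134 and 152 CPM in DMSO and at 76.8, 90.9 and 96.4 CPM in EZH2i. Its groups were far apart, and it fell by 0.73 on the log2 scale (SE 0.112, edgeR adjusted p = 0.00138), a call that held with each library left out (highest adjusted p = 0.0149). CEBPG, a C/EBP partner of ATF4, was at 68.3, 66 and 52.5 CPM in DMSO and at 35.8, 38.2 and 42.8 CPM in EZH2i, and fell by 0.68 (SE 0.128, edgeR adjusted p = 0.00586); its adjusted p was 0.0502 without DMSO replicate 1. ATF4 itself was at 585, 547 and 619 CPM in DMSO and at 718, 511 and 452 CPM in EZH2i. EZH2i 1 was the highest and EZH2i 3 the lowest of all libraries, and the log2 fold change was -0.059 (edgeR adjusted p = 0.862). ATF4 is controlled largely by translation, it is named here as the factor of the response element above although it was not called, and RNA counts do not measure its protein.

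Of 32 listed genes of amino acid sensing upstream of mTORC1, 31 were found, 30 were tested and 0 were called, with a median of 0.009. Of all tested genes, 4.26% were called in either direction. Of 14 genes that use cystine or glutamine, from glutathione synthesis to asparagine synthetase, 12 were tested and 0 called, with a median of -0.11. GCLM, the modifier subunit of glutamate-cysteine ligase, which uses the cysteine that system xc- supplies as cystine, was at 62.4, 57.9 and 58.4 CPM in DMSO and at 46.6, 52.5 and 47.6 CPM in EZH2i. These groups did not overlap, but the log2 fold change of -0.28 was not called (edgeR adjusted p = 0.159). GLUL, glutamine synthetase, was at 286, 272 and 297 CPM in DMSO and at 263, 284 and 298 CPM in EZH2i, with a log2 fold change of -0.017 (edgeR adjusted p = 0.951). GCLM, GLUL and SLC7A8 were picked from their lists after their values were seen.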

How the data were processed

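RNA was measured by QuantSeq 3′ mRNA sequencing in 3 DMSO and 3 EZH2i cultures. The authors deposited raw counts of reads per Ensembl gene for each library, without normalization and without pooling replicates. The submitters' processing notes name STAR 2.6.0c, HTSeq 0.11.2 and GRCh38; the strand setting of the counting is not given in the sources used here. A further deposited table holds the authors' DESeq2 fold changes and p-values and was not used.

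Rows that name no gene (32.1% to 36.4% of listed reads) were left out. Symbols and positions came from GENCODE 44, which matched 60401 of 60671 identifiers; 1 listed symbol was not found. The main test was that of edgeR 4.0.16, run in R 4.3.3 (TMM, filterByExpr with a minimum count of 10, glmQLFit, glmQLFTest, two-sided, Benjamini-Hochberg adjustment, threshold 0.05); 12364 of the 26226 genes with a read passed, and the common dispersion was 0.0129. The SE is the size of the log2 fold change divided by the square root of F. DESeq2 1.42.0, limma 3.58.1 (voom), RLE and upper quartile factors, other filters, a replicate block and leaving out each library were alternatives. No library was a copy of another of its group, as each pair within a group exceeded counting noise (chi-square per degree of freedom 4.56 to 12.7). The highest values, 10.8 and 12.7, were those of EZH2i replicate 1 with EZH2i replicates 2 and 3. Pairs across the groups were not compared in this way. Libraries with the same number did not deviate together (correlations of -0.0511, -0.0175 and -0.017), so the numbers were not taken as pairs.

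The members and lists were chosen with earlier results of these data known. All 10 members are named; of other lists, called genes, at most 4 a list; and the 3 genes most correlated with the member of smallest p. Genes named outside this rule are marked, are examples of a count, or are ATF4, added as the factor of the response element. Promoter windows came from RefSeq (GRCh38.p14). The scripts were tested on simulated data. A further gene that overlaps a member is not reported here.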

Additional observations from a re-analysis of the deposited data

How the results depend on the processing

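The number of members called, 0 with edgeR, was 1 with DESeq2, 2 without a filter on low counts, 1 with the replicate block and 0 to 1 with each library left out, and it was 0 with limma-voom, RLE or upper quartile factors and a minimum of 10 counts in every library. SLC1A5 was called at -0.46 with DESeq2, -0.47 without a filter and -0.44 with the replicate block (adjusted p = 0.0251), and ranged from -0.57 to -0.35 with 1 library left out. SLC7A11 was called at -0.45 without a filter (edgeR adjusted p = 0.0236) and ranged from -0.59 to -0.33 with 1 library left out. The sign of SLC1A4 turned with 1 library left out (-0.062 to 0.12, with -0.0084 without DMSO replicate 2), and that of SLC6A9 with DESeq2 (-0.003), without a filter (-0.0078) and with 1 library left out (-0.13 to 0.11); neither was called in any setting. In the other lists of amino acid genes, 2 genes called lower became 6 without a filter, beside 1.33% of all genes, and 1 to 4 with 1 library left out. It was 4 without EZH2i replicate 1, beside 0.973% of genes, and 1 without DMSO replicate 1, beside 0.258%. The 0 called higher became 2 without a filter, beside 579 of 26226 genes called higher. It was also 2 without EZH2i replicate 1, beside 412 of 12750 genes, and 0 with any other library left out. The cause of these shifts was not tested. The other 6 members kept their sign and stayed uncalled in every alternative, but not their size. With 1 library left out, SLC43A1 ranged from -0.42 to -0.20 (without DMSO replicate 1 and 3), SLC7A5 from -0.27 to -0.09 (without DMSO replicate 2 and 3), SLC7A1 from -0.21 to -0.028 (without DMSO replicate 2 and 1), SLC38A1 from -0.25 to -0.045 (without EZH2i replicate 3 and 1), SLC38A2 from -0.33 to -0.014 and SLC3A2 from -0.27 to -0.20. Same-numbered libraries were not shown to be pairs, so the block value is only an alternative fit. With 3 libraries a group, the intervals of the members span about 0.4 to 0.6 on the log2 scale, which limits how closely each change is known.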

Other observations

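SLC16A10, a carrier of aromatic amino acids at the plasma membrane, was too low for the filter and was singled out after its values were seen. It had 1, 0 and 1 reads in DMSO replicates 1, 2 and 3 and 6, 9 and 7 reads in EZH2i replicates 1, 2 and 3, so the groups did not overlap. Without a filter on low counts edgeR called it higher (adjusted p = 0.0358). RRAGD, a Rag GTPase of amino acid sensing, was also below the filter, with 0, 3 and 4 reads in DMSO and 14, 8 and 10 in EZH2i, and was called higher in the same fit (edgeR adjusted p = 0.0422). The same fit called 4 listed genes lower that the filtered fit had tested and not called. They were SLC25A38, the mitochondrial glycine carrier (log2 fold change -0.60, edgeR adjusted p = 0.00493), DDIT3 (-0.53, 0.0222), CTH (-0.46, 0.0482) and MTOR (-0.42, 0.0367). SLC25A38 was at 33, 36.1 and 28.6 CPM in DMSO and at 13, 27.7 and 24.5 CPM in EZH2i, with no overlap and EZH2i 1 far below the rest. It was also called lower with the replicate block (edgeR adjusted p = 0.0311) and without EZH2i replicate 2 (adjusted p = 0.039), and its adjusted p with all libraries and the filter was 0.116. DDIT3 and MTOR were also called lower without EZH2i replicate 1 (edgeR adjusted p = 0.0381 and 0.034). FNIP2, which acts with folliculin on the Rag GTPases, was called higher in that fit (log2 fold change 0.39, adjusted p = 0.0399). With all libraries and the filter, DDIT3, MTOR and FNIP2 had edgeR adjusted p of 0.0864, 0.0663 and 0.113. With 1 library left out, the highest edgeR adjusted p was 0.254 for DDIT3, 0.234 for MTOR and 0.335 for FNIP2. It was 0.347 for SLC25A38 and 0.338 for CTH.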
